A study of Mus musculus with 16 samples.

Results

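Malat1, Neat1, Pvt1 and Miat are long non-coding RNAs that are known to stay in the nucleus, and they were taken by name from the gene and exon tables. They filled 4 of 53333 gene rows and 105 of 468583 exon bins, and 3 of the 4 passed the filter on low counts, since Miat had no count in any library. Ribodepleted total RNA had been sequenced from mHiPPoE-2, a transformed line of mouse hippocampal neurons, in 16 libraries that form 8 groups of 2. The METTL3 KO group is 1 clonal isolate without METTL3, which methylates adenosines of RNA to N6-methyladenosine (m6A). KO rescue stands for 2 clones of RBM45 knockout cells that carry F-HA-tagged RBM45_mut[delta]gRNA, a copy of the RNA-binding protein RBM45. RBM45 KO stands for 2 knockout clones, control for 2 clones given Cas9 but no guide RNA, and WT for the unedited cells. All groups share the transformed line, and nothing in the labels ties the replicate libraries to separate cultures. Where libraries are the units, the p-values thus reflect the spread among these libraries, which may be technical. The RBM45 comparisons on summed libraries reflect the spread among 6 clones.

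Malat1 lies at nuclear speckles, the stores of splicing factors, and loses its 3′ end to RNase P, which cuts after an A-rich tract that folds into a triple helix. Neat1 is the scaffold of paraspeckles; its short isoform ends at a poly(A) site near the 5′ end, and the long isoform reads through it and builds the paraspeckle. Pvt1 is the spliced neighbour of the oncogene Myc and the host of microRNAs. Miat, also called Gomafu, is known for its expression in neurons and for binding splicing factors such as Celf3 and Qki.

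The following sequences mark the places on which the counts along Malat1 and Neat1 turn. They were read from GENCODE mouse release 21 transcripts (GRCm38), 5′ to 3′ on the RNA's strand. The first holds the A-rich tract of Malat1 (chr19:5795918-5796059, minus strand), with the longest run of A, 12 bases, in capitals.
Malat1 A-rich tract: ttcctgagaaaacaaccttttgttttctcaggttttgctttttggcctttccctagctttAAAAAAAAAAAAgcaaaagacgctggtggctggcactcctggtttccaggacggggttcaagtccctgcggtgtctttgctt
The second is the annotated 3′ end of Malat1 (chr19:5795690-5795849, minus strand), downstream of that tract, with a 92-base exon bin that took almost no counts in capitals.
Malat1 annotated end: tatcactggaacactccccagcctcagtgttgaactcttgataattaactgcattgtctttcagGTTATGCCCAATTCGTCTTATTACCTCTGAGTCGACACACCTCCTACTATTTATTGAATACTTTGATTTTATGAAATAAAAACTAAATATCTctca
The third surrounds the end of the short Neat1 isoform (chr19:5842267-5842386, minus strand), with the poly(A) signal letters AATAAA in capitals; base 80 of the run is the last base of the short isoform.
Neat1 short isoform end: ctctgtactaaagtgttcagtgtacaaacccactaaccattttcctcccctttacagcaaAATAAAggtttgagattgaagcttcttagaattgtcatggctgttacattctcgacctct
The fourth is the 100-base stretch of Malat1 with the most matches to GGACT, the core letters in which m6A is commonly written (chr19:5801465-5801564, minus strand), with its 2 matches in capitals.
Malat1 GGACT window: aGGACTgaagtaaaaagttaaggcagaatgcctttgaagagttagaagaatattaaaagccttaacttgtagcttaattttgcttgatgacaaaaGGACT

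On the RNA strand alone, GGACT occurred 9 times in Malat1 (1.29 per kb), 23 times in the long Neat1 isoform (1.11 per kb), 6 times in the short one (2.0 per kb), 19 times in a Miat isoform of 9163 bases (2.07 per kb) and not at all in a Pvt1 isoform of 1563 bases. The median of 68537 transcripts of at least 1 kb was 0.975 per kb, and 88.5% of them hold the letters. GACGAC, a motif reported for RBM45, occurred 2 times in the long Neat1 isoform, 1 time in the Miat isoform and in none of the others named; 21.2% of transcripts hold it. These matches describe letters only, since neither m6A nor RBM45 binding was measured here.

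The libraries held 7193908 to 18751324 counts each in the gene table. Levels are CPM, counts scaled to a common library size after TMM normalization, and the scaling factors were 1.24 and 1.34 in METTL3 KO, 1.03 to 1.27 in KO rescue, 0.75 to 0.95 in RBM45 KO, 0.81 to 1.11 in control, and 0.85 and 0.97 in WT. As a check of the labels, Mettl3 stood at 3.53 ± 0.25 CPM in METTL3 KO and 10.2 ± 2.0 CPM in WT (SD, n = 2 each), and Rbm45 at 23.2 ± 2.0 CPM in KO rescue, 8.04 ± 2.08 CPM in RBM45 KO and 14.7 ± 1.9 CPM in control (SD, n = 4 each). Of 12 neuron markers 5 had a median over 1 CPM. These were Map2 (82.1 CPM), Syn1 (41.3 CPM), Dlg4 (24.8 CPM), Elavl3 (4.9 CPM) and Tubb3 (1.02 CPM). Rbfox3, Snap25, Gad1 and Neurod6 were among those at or near 0. A median over 1 CPM was reached by 3 of 3 progenitor markers and 5 of 5 mesenchyme markers. That level was also reached by 2 of 5 oligodendrocyte markers, Cspg4 (64.4 CPM) and Cnp (20.3 CPM). So it was by 2 of 4 microglia markers, Cx3cr1 (37.8 CPM) and Csf1r (4.19 CPM). It was reached by 0 of 4 astrocyte and 0 of 3 endothelium markers. In bulk RNA, fewer cells that express a gene and less of its RNA per cell cannot be told apart.

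Malat1 was the most abundant of the 4 in all 16 libraries, with 8949 to 38912 counts, rank 13 to 28 among gene rows and 0.102% to 0.309% of all counts. Per kb of gene, Malat1 stood at 184.5 to 345 CPM, Neat1 at 3.70 to 14.4 CPM and Pvt1, whose row covers 340.1 kb that is mostly intron, at 0.345 to 0.931 CPM. Neat1 ranked 91 to 961 and Pvt1 68 to 440. On GRCm38 the rows lie at chr19:5795690-5802672 (Malat1, minus strand), chr19:5824708-5845478 (Neat1, minus strand), chr15:62037986-62378096 (Pvt1, plus strand) and chr5:112213228-112229395 (Miat, minus strand). The row of each RNA also holds small annotated RNAs inside it (Gm27694 in Malat1, 3 each in Neat1 and Pvt1, 4 in Miat), whose counts cannot be separated.

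Miat was listed at 0 in the gene table, in all 30 of its exon bins and in its introns, and so was its antisense neighbour Gm26953. A count of 0 allows up to 3 counts, or 0.157 to 0.432 CPM depending on the library, a limit that covers counting error only. Of all gene rows, 21527 or 40.4% were at 0 in every library, so Miat shares its state with much of the annotation; of the genes beside Miat, Hps4 was counted at 8.90 ± 0.34 CPM in METTL3 KO and 6.21 ± 1.25 CPM in WT (SD, n = 2 each).

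**Figure D1:**
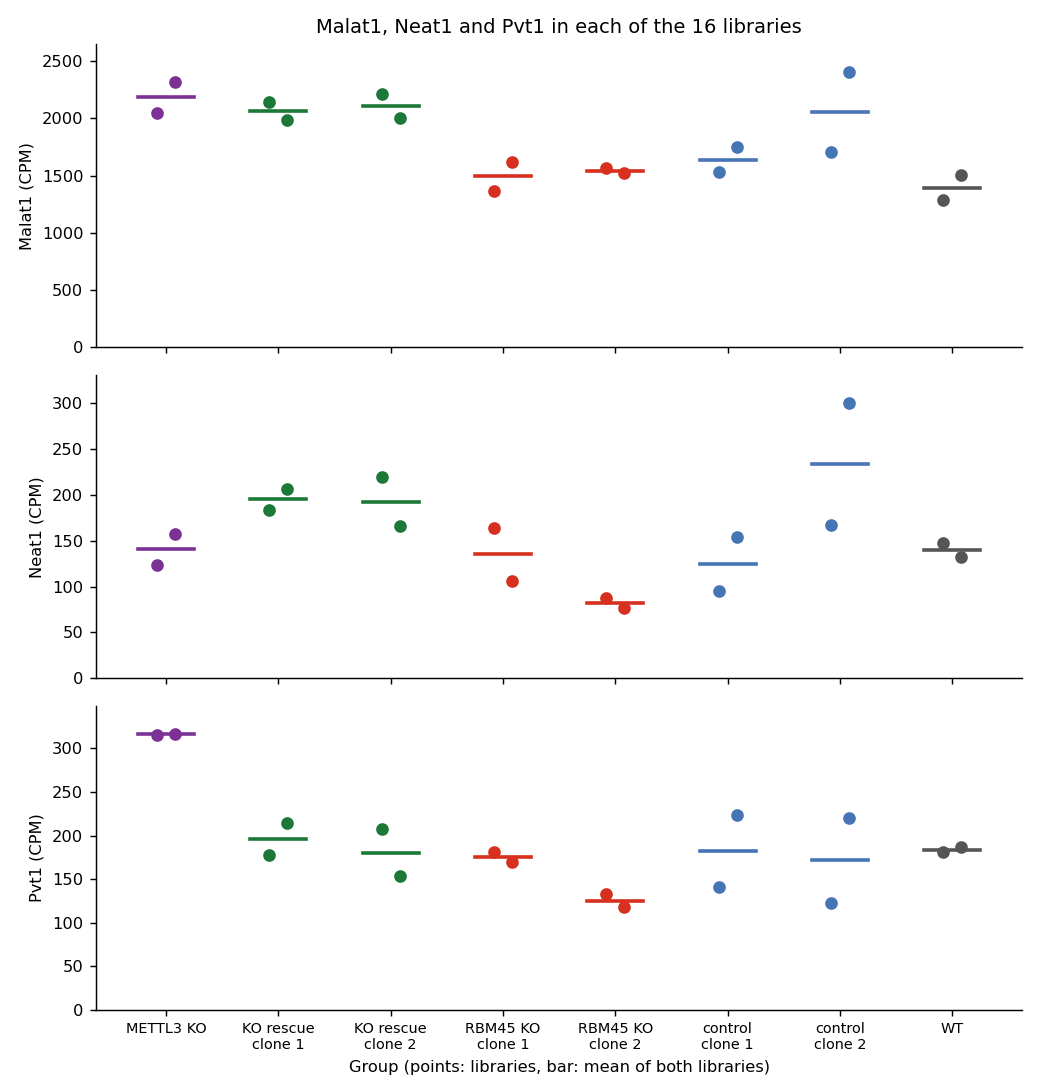
Level in CPM (y axis, from 0) of Malat1, Neat1 and Pvt1 in each library (points) of the 8 groups (x axis), with the mean of both libraries as a bar. Pvt1 in METTL3 KO (316.0 and 317 CPM) lies above all other libraries, Malat1 is lowest in a WT library, and Neat1 spans 76.8 to 300.0 CPM with its extremes in RBM45 KO clone 2 and control clone 2.

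METTL3 KO against WT asks how the RNAs stand in the line without the m6A writer. Malat1 and Pvt1 rose and Neat1 did not pass the test, so 2 of the 3 tested RNAs were called, against 22.9% of the 16223 genes tested (3721 genes; called means a Benjamini-Hochberg adjusted p under 0.05 in edgeR). The test compares 1 clonal isolate with unedited cells over 2 libraries each, and so compares lines rather than genotypes. The summed level of the 3 progenitor markers (Nes, Sox2, Pax6) was 148.2 to 172.8 CPM in METTL3 KO and 303.0 to 304.6 CPM in WT. That of the 5 mesenchyme markers was 1142 to 1194 CPM in METTL3 KO and 1217 to 1583 CPM in WT. Microglia markers were also lower, at 37.8 to 37.85 CPM in METTL3 KO and 43.25 to 59.59 CPM in WT. Neuron markers were higher, at 137.1 to 144.3 CPM in METTL3 KO and 132.5 to 136.9 CPM in WT. So were astrocyte markers, at 1.585 to 2.138 CPM in METTL3 KO and 1.398 to 1.583 CPM in WT. None of these overlapped, while the oligodendrocyte and endothelium markers did. The gaps were very small for astrocyte markers (1.585 against 1.583 CPM) and neuron markers (137.1 against 136.9 CPM). With 2 libraries on each side, a lack of overlap is weak evidence of a difference, and the share of all genes that separate this way is not given here. The part of the markers in the changes below was not tested.

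Malat1 had 2051 and 2316 CPM in METTL3 KO, against 1288 and 1502 CPM in WT. Both METTL3 KO libraries were above both WT libraries, a log2 change of 0.65 (SE 0.17, adjusted p = 0.0130), or 1.57-fold. The METTL3 KO values fell within the range of the 4 control libraries, 1535 to 2410 CPM, which also lay above WT without overlap; control over WT gave a log2 change of 0.40 (SE 0.15, adjusted p = 0.116), with 8.99% of genes and none of the 3 RNAs called. Without METTL3 KO replicate 2 or without WT replicate 1 the adjusted p for METTL3 KO over WT became 0.12 and 0.109.

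Pvt1 had 316.0 and 317 CPM in METTL3 KO, against 180.6 and 187.0 CPM in WT. The METTL3 KO libraries agreed closely and exceeded not only WT but each of the other 14 libraries, of which the highest had 223 CPM. The log2 change was 0.78 (SE 0.23, adjusted p = 0.0219), or 1.72-fold. Leaving out any 1 of the 4 libraries left a log2 change of 0.76 to 0.81 but an adjusted p of 0.0573 to 0.1003.

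Most of the Pvt1 signal was intronic: its exon bins took 6.85% to 13.1% of its exon and intron counts. Its introns of at least 1 kb, 9 in number, stood at 298.9 and 299.1 CPM in METTL3 KO, against 163.8 and 175.3 CPM in WT. Its exon bins stood at 26.6 and 27.6 CPM in METTL3 KO, against 24.6 and 18.7 CPM in WT. Both parts were higher in METTL3 KO without overlap on the scale of the gene table. Scaled within the exon table, however, the summed exon bins gave a log2 change of 0.49 (SE 0.22, adjusted p = 0.134), and within the intron table the introns gave 0.44 (SE 0.19, adjusted p = 0.119), so the call rests on the gene table.

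Neat1 had 123.6 and 157.3 CPM in METTL3 KO, against 147.8 and 132.2 CPM in WT. The libraries overlapped, and the log2 change was 0.01 (SE 0.26, adjusted p = 0.987).

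The share of exon and intron counts that fell on introns was higher in METTL3 KO than in WT, without overlap. It was 21.6% and 22.2% in METTL3 KO, 19.1% to 22.1% in KO rescue, 16.7% to 20.1% in RBM45 KO, 18.4% to 20.4% in control, and 19.6% and 18.6% in WT. In 8 of 8 groups the library with the higher intron share had the higher Neat1 level, as in 0.623% of the genes tested. The count was 7 of 8 for Pvt1 (4.33% of genes had as many or more) and 5 of 8 for Malat1 (35.4% had as many or more).

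With the intron share as a covariate, a fit chosen after seeing the data, METTL3 KO over WT gave a log2 change of 0.55 for Malat1 (SE 0.24, adjusted p = 0.159), 0.23 for Pvt1 (SE 0.24, adjusted p = 0.601) and -0.68 for Neat1 (SE 0.25, adjusted p = 0.102). None of the 3 was called in that fit, which called 1266 genes. The intron share itself separated METTL3 KO from WT without overlap, and most Pvt1 counts were intronic. The fit therefore cannot cleanly tell the line from the intron share. Whether the intron share accounts for the changes was not tested.

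**Figure D2:**
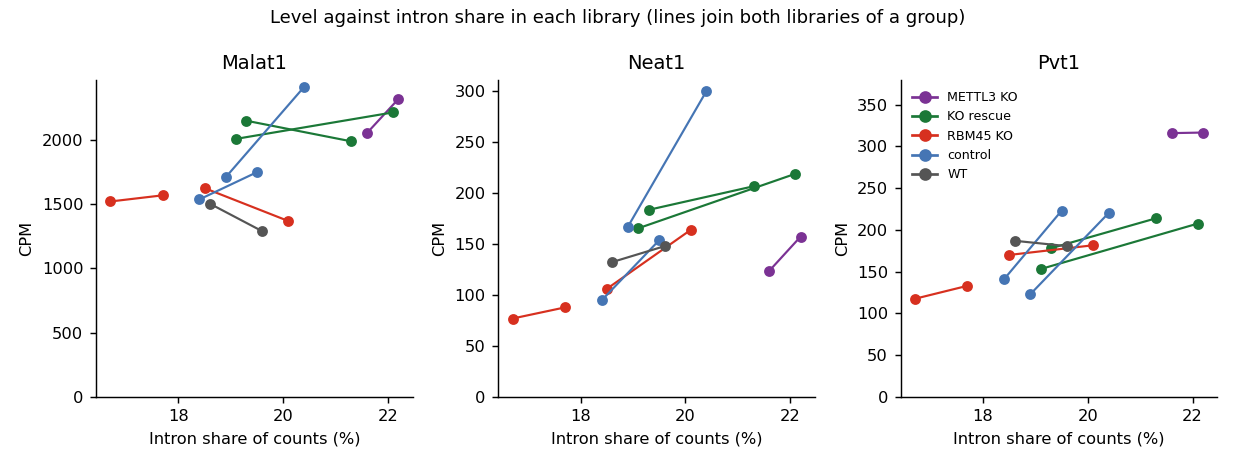
Level in CPM (y axis, from 0) against the intron share of exon and intron counts in percent (x axis) for each library, with a line joining both libraries of a group. All 8 Neat1 lines slope upward, as do 7 of 8 Pvt1 lines and 5 of 8 Malat1 lines; METTL3 KO lies at the high end of the intron share, at 21.6% and 22.2%.

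For the RBM45 question the clone is the unit that received the edit, so the libraries of each clone were added together and 6 clones were compared. No gene of 16867 was called by edgeR in RBM45 KO over control, in KO rescue over RBM45 KO or in KO rescue over control (0.00% each), and so none of the RNAs was. Unadjusted p fell under 0.05 for 983, 1239 and 2620 genes in these comparisons, and DESeq2 called 4, 45 and 456 genes but none of the RNAs.

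Malat1 had 2147, 1987, 2212 and 2006 CPM in KO rescue, 1367, 1623, 1567 and 1519 CPM in RBM45 KO, and 1535, 1747, 1706 and 2410 CPM in control. KO rescue lay above RBM45 KO in every library, a log2 change of 0.44 (SE 0.18, adjusted p = 0.662). RBM45 KO and control overlapped (log2 change -0.30, SE 0.18, adjusted p = 0.755), as did KO rescue and control (0.13, SE 0.18, adjusted p = 0.739). Leaving out 1 clone, RBM45 KO over control ran from -0.47 without control clone 1 to -0.098 without control clone 2.

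Neat1 had 183.5, 206.6, 218.9 and 165.4 CPM in KO rescue, 163.8, 106.0, 87.7 and 76.8 CPM in RBM45 KO, and 94.6, 153.8, 166.9 and 300.0 CPM in control. The lowest KO rescue library stood just above the highest RBM45 KO library, and the log2 change was 0.83 (SE 0.36, adjusted p = 0.662). RBM45 KO over control gave a log2 change of -0.80 (SE 0.36, adjusted p = 0.754), with overlap and with 1 control library far above the rest. Without control clone 2 that value was -0.23, and without control clone 1 it was -1.19. KO rescue over control gave 0.03 (SE 0.36, adjusted p = 0.977).

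Pvt1 had 178.1, 213.9, 207.6 and 153.1 CPM in KO rescue, 181.6, 170.0, 133.0 and 117.5 CPM in RBM45 KO, and 140.9, 223.1, 122.8 and 220.4 CPM in control. All 3 groups overlapped. The log2 change was 0.30 for KO rescue over RBM45 KO (SE 0.19, adjusted p = 0.705), -0.29 for RBM45 KO over control (SE 0.19, adjusted p = 0.762) and 0.01 for KO rescue over control (SE 0.19, adjusted p = 0.984). Leaving out 1 clone, KO rescue over RBM45 KO ran from 0.070 to 0.55 and RBM45 KO over control from -0.54 without RBM45 KO clone 1 to -0.060 without RBM45 KO clone 2. The comparisons share their clones: RBM45 KO enters both of the first, and control both of the last.

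When the 16 libraries rather than the clones were taken as units, KO rescue over RBM45 KO gave log2 changes of 0.46 for Malat1 (SE 0.12, adjusted p = 0.0151) and 0.88 for Neat1 (SE 0.19, adjusted p = 0.00337), and RBM45 KO over control gave -0.70 for Neat1 (SE 0.19, adjusted p = 0.0162). This fit treats both libraries of a clone as independent, and it called 9.62% of all genes higher in KO rescue over RBM45 KO, 7.63% lower in RBM45 KO over control and 34.3% in either direction in KO rescue over control, where none of the 3 RNAs was called. With the intron share as a covariate as well, these changes were 0.38 (adjusted p = 0.247), 0.35 (adjusted p = 0.294) and -0.41 (adjusted p = 0.0892).

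Between clones of a single genotype, Neat1 passed the test for control only. Control clone 1 had 94.6 and 153.8 CPM, against 166.9 and 300.0 CPM in control clone 2, a log2 change of -0.91 (SE 0.26, adjusted p = 0.0200) without overlap. Neat1 was the only one of the 3 RNAs called there, against 19.6% of all genes, and it stayed called with the intron share as a covariate (-0.72, SE 0.19, adjusted p = 0.0158). The difference depended on 2 libraries: without control clone 1 replicate 1 it was -0.61 (adjusted p = 0.194), and without control clone 2 replicate 2 it was -0.43 (adjusted p = 0.272).

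RBM45 KO clone 1 had 163.8 and 106.0 CPM of Neat1, against 87.7 and 76.8 CPM in RBM45 KO clone 2, without overlap. The log2 change was 0.71 (SE 0.26, adjusted p = 0.0864), and for Pvt1, also without overlap, it was 0.49 (SE 0.23, adjusted p = 0.195); no RNA passed, against 14.1% of all genes. Between the KO rescue clones the log2 changes were 0.02 for Neat1, -0.03 for Malat1 and 0.12 for Pvt1, none called, against 2.29% of all genes. The Neat1 changes between clones of 1 genotype, fitted on libraries, were thus -0.91, 0.71 and 0.02. Those between genotypes, fitted on summed clones, were -0.80, 0.83 and 0.03.

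**Figure D3:**
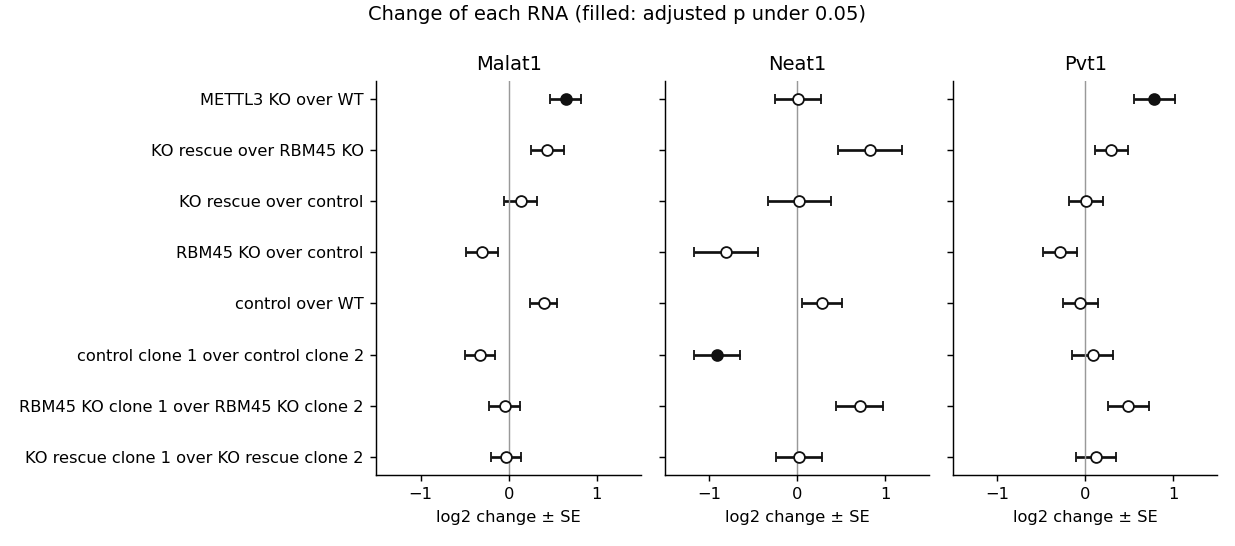
Log2 change (x axis) with its standard error for Malat1, Neat1 and Pvt1 in the 8 comparisons (rows); filled points have an adjusted p under 0.05. The filled points are Malat1 (0.65) and Pvt1 (0.78) in METTL3 KO over WT and Neat1 (-0.91) in control clone 1 over control clone 2.

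Exon bins show where along each RNA the counts fell. A pair of reads counted for every bin that held at least 0.1 of it, so short bins have inflated counts per kb and neighbouring bins share fragments. Along Malat1 the density in the first bin of 434 bases was 0.487 to 0.660 times that in a bin of 564 bases near the 3′ end. The 603-base bin that holds the A-rich tract took 672 to 2404 counts per library, and the 92 bases printed in capitals at the annotated end took 1 to 10 counts. Per base, that end had 0.611% to 5.02% of the density of the bin before it, so counts at the annotated end were nearly absent in every group.

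The gene Gm37376 (chr19:5801941-5802393, plus strand) is annotated antisense to the 5′ part of Malat1. It had 170.6 to 399 CPM per kb, close to the 181.1 to 447 CPM per kb of the Malat1 bin beneath it. The library kit does not mark strand, and the counts of both strands cannot be told apart.

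Along Neat1 the part shared with the short isoform held more counts per base than the part of the long isoform alone. The last bin of the short isoform (chr19:5842307-5843680, 1374 bases) averaged 11.1 CPM per kb in METTL3 KO, 20.03 in KO rescue, 9.05 in RBM45 KO, 12.2 in control and 9.11 in WT. The longest bin of the long isoform alone (chr19:5828013-5842306, 14294 bases) averaged 6.27 CPM per kb in METTL3 KO, 7.69 in KO rescue, 4.63 in RBM45 KO, 8.33 in control and 6.32 in WT. KO rescue thus had the highest mean in the short-isoform part. Its libraries there, at 14.42 to 23.75 CPM per kb, still overlapped the 6.12 to 19.97 CPM per kb of control. In the long-only part its libraries, at 6.95 to 9.16 CPM per kb, lay within the 4.34 to 14.3 CPM per kb of control.

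The ratio of the short-isoform bin to the long-only bin was 3.03 and 3.11 in KO rescue clone 1 and 2.28 and 2.06 in KO rescue clone 2, against 1.41 and 1.61 in control clone 1 and 1.48 and 1.395 in control clone 2. Every KO rescue library was above every control library. It was 1.36 and 2.02 in RBM45 KO clone 1 and 2.44 and 2.88 in RBM45 KO clone 2, so 3 of these 4 libraries were above all control libraries and 1 was below them. In METTL3 KO it was 1.92 and 1.66, against 1.22 and 1.72 in WT, with overlap.

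Relative to the rest of Neat1, all 12 tested bins of the part shared with the short isoform were higher and all 7 of the long-only part were lower in KO rescue over control, with medians of 0.64 and -0.33 on the log2 scale. The same signs held in RBM45 KO over control, with medians of 0.55 and -0.40. KO rescue over RBM45 KO had no such split, with 7 of 12 and 4 of 7 bins higher. Control clone 1 over control clone 2 also had 12 of 12 and 1 of 7 bins higher, with medians of 0.34 and -0.21, although the ratios of these clones overlapped. KO rescue clone 1 over KO rescue clone 2 had 12 of 12 and 1 of 7 bins higher too, with medians of 0.30 and -0.19. RBM45 KO clone 1 over RBM45 KO clone 2 had the reverse, 1 of 12 and 6 of 7 bins higher, with medians of -0.46 and 0.23. Such a split thus also occurred between clones of each of these genotypes. Bins of 1 gene are compared with each other, so that higher bins go with lower ones, and these signs are given as a description.

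None of the bins tested was called in any of the 8 comparisons: 11 of Malat1, 19 of Neat1 and 14 of Pvt1 on clones, and 10, 19 and 8 of them on libraries. The other bins, all 30 of Miat among them, had too few counts to be tested. For KO rescue over control the 1374-base bin had a log2 change of 0.55 relative to the gene (SE 0.41, adjusted p = 1.0), and 2 of 19 Neat1 bins had an unadjusted p under 0.05. With libraries as units, chosen after seeing the data, the bin had 0.52 (SE 0.21, unadjusted p = 0.0160), and 5 of 19 bins were under 0.05, with a smallest adjusted p of 0.928. Calls were rare throughout: the share of all bins called was 0.00285% in RBM45 KO over control, 0.000712% in KO rescue over RBM45 KO, 0.00427% in KO rescue over control and 0.0137% in METTL3 KO over WT. It was 0.000981% in control over WT. Between clones of a genotype it was 0.0245% for control, 0.00196% for RBM45 KO and 0.000981% for KO rescue.

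**Figure D4:**
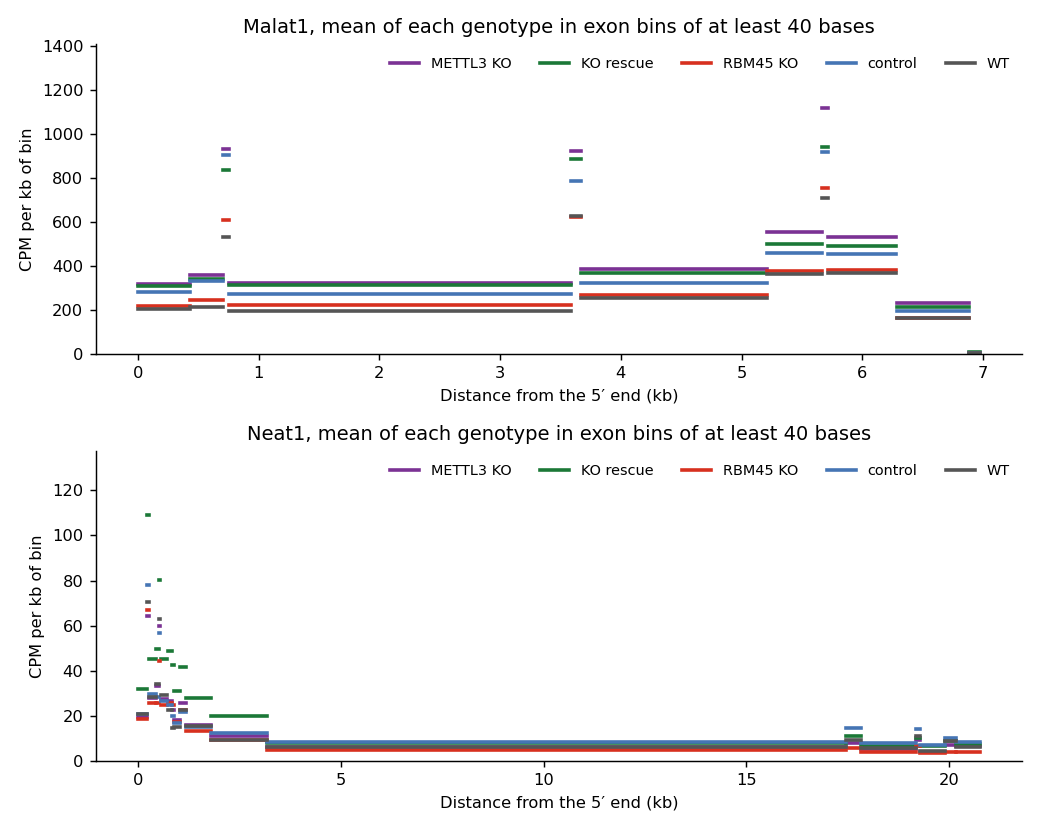
Mean level of each genotype in CPM per kb of exon bin (y axis, from 0) along Malat1 and Neat1, against the distance from the 5′ end in kb (x axis), for bins of at least 40 bases. In Neat1 the KO rescue line is the highest over the 5′ part shared with the short isoform (20.03 CPM per kb in its last bin) but not over the long-only part (7.69 CPM per kb), and in Malat1 the last bin is near 0.

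**Figure D5:**
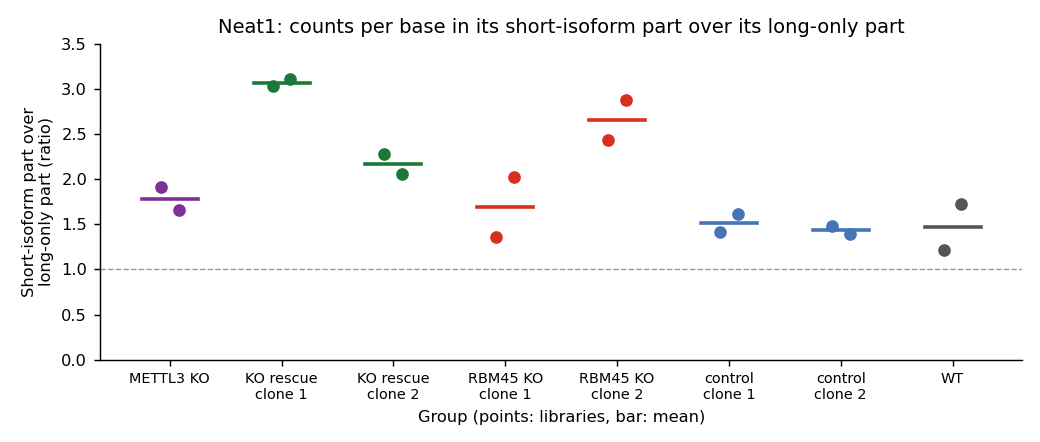
Ratio of counts per base in the last bin of the short Neat1 isoform to those in the longest bin of the long isoform alone (y axis, from 0), per library (points) with the group mean (bar); the dashed line marks equal density. The 4 KO rescue libraries (2.06 to 3.11) lie above the 4 control libraries (1.395 to 1.61), and the RBM45 KO clones stand apart from each other.

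Proteins and RNAs that work with the 4 RNAs were followed as lists. In METTL3 KO over WT, 3 of 22 paraspeckle proteins rose and 1 fell, against 22.9% of all genes called in either direction; the list median was -0.04 on the log2 scale and that of all genes tested 0.01. The share called was thus near the background. Pspc1, a core paraspeckle protein, had 51.7 ± 6.7 CPM in METTL3 KO and 31.4 ± 7.2 CPM in WT (log2 change 0.72). Taf15, an RNA-binding protein, rose by 0.59 and a joined row that holds Rbm14, a paraspeckle assembly protein, by 0.58, while Hnrnpk, which takes part in Neat1 isoform choice, fell by 0.36.

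Of 19 nuclear speckle and partner proteins 7 fell and none rose, where 1907 of all 16223 genes fell and 1814 rose; the list median was -0.29. U2af2, which binds the polypyrimidine tract at the 3′ splice site, had 48.2 ± 1.9 CPM in METTL3 KO and 73.8 ± 4.2 CPM in WT (log2 change -0.61). The changes were -0.51 for Rnps1 of the exon junction complex, -0.44 for the splicing coactivator Srrm1 and -0.45 for Snrnp70 of the U1 particle. Of 21 proteins of Malat1 end processing and m6A writing 3 rose and 1 fell, where 22.9% of all genes were called in either direction. Those that rose were Cbll1 and Zc3h13, partners of the m6A writer, by 0.73 and 0.46, and Pop7, a subunit of RNase P, by 0.67. The 1 that fell was Mettl3 (-1.53), the gene targeted in this line, so its call says nothing about the rest of the list.

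Among 30 other long non-coding RNAs tested, 5 rose and 2 fell in METTL3 KO over WT, a share close to the 22.9% of all genes called, with a median of 0.16. Airn, which is antisense to the imprinted Igf2r gene, had 45.1 ± 1.0 CPM in METTL3 KO and 20.5 ± 2.2 CPM in WT (log2 change 1.15). Dleu2, in a row joined with Mir16-1, rose by 1.01 and the microRNA host Mir99ahg by 0.78, while the joined row of the snoRNA host Snhg3 fell by 0.74. In 14 tested genes beside the RNAs, 1 was called: Myc, next to Pvt1, had 49.0 ± 5.8 CPM in METTL3 KO and 93.4 ± 41.1 CPM in WT (log2 change -0.92), and its WT libraries, at 64.3 and 122.5 CPM, were far apart. Pvt1 and Myc thus differed in opposite directions there. Myc was also lower in control over WT, at 58.4 ± 3.1 CPM in control (SD, n = 4), a log2 change of -0.67 (adjusted p = 0.0187), where Pvt1 gave -0.06 (SE 0.20, adjusted p = 0.901).

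No list gene was called in the 3 RBM45 comparisons, where the smallest adjusted p among them was 0.754, 0.662 and 0.276 or above. Between the control clones, where 19.6% of all genes were called, 8 of 30 other long non-coding RNAs rose and 4 fell; Pantr1 changed by 1.49 and Mir99ahg by -1.24. There too Rbmx, of the paraspeckle list, rose by 0.54, and 3 of 19 speckle proteins rose, near the share of all genes.

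Over the 8 group means the RNAs followed each other only in part, with a Pearson r of log2 CPM of 0.65 for Malat1 and Neat1, 0.53 for Malat1 and Pvt1 and 0.32 for Neat1 and Pvt1. Among 6497 genes with at least 10 CPM, those near to Malat1 included Rab11fip2 (r = 0.957) and Prdm10 (0.938). The nearest to Neat1 were Aebp2 (0.928), Mcph1 (0.908) and Tango6 (0.894), and the nearest to Pvt1 were Dtnb (0.974), Gpatch2l (0.969) and Fut10 (0.964). Dtnb, which encodes dystrobrevin beta, had 36.6 CPM in METTL3 KO, 10.8 to 17.03 CPM in the 6 clones of the other genotypes and 18.6 CPM in WT. These are the highest of many values over 8 points that share libraries and depth, and are given as a description.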

How the data were processed

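The submitters' processing notes name HISAT2 2.1.0 and mm10. The authors deposited raw fragment counts for each whole gene body, exon bin and intron, made with featureCounts 1.6.3 from flattened Ensembl 98 (gene, exon) and RefSeq (intron) annotations, per the file headers. All 16 columns hold raw counts as deposited and were read as such. A unit check labelled 1 column an estimated count because it misread the column's name, and that column too holds whole deposited counts. Counting asked for 1 strand, per the file headers, although the library kit was non-directional, per the labels' protocols.

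Columns were joined to samples by name, those of the controls by elimination; control and KO rescue clone numbers are names only. Symbols came from GENCODE release 21 (GRCm38) and matched all parts of 53152 of 53333 rows. The members and the gene lists were chosen with earlier results of these data known. Named genes are the members, for each list up to 4 genes with the smallest p in a comparison, and the 3 most alike genes per member; some genes the rule picks are not reported here.

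Tests used edgeR 4.0.16 in R 4.3.3 (quasi-likelihood, TMM, filterByExpr, Benjamini-Hochberg over all genes): the RBM45 comparisons on 6 clones of summed libraries (16867 genes, 3 residual degrees of freedom), the others on 16 libraries forming 8 groups (16223 genes, with 8 residual degrees of freedom). For exon bins averaging 10 counts or more, diffSpliceDGE was used. Alternatives were DESeq2 1.42.0, RLE scaling, no filter, summed exon bins or introns, other units, a replicate block and leaving out libraries or clones. The fits were tested on simulated data.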

Additional observations from a re-analysis of the deposited data

How the results depend on the processing

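Precision is limited by 2 libraries a group and 1 METTL3 KO clone. Of the log2 changes of Malat1, Neat1 and Pvt1 over all alternatives, 227 kept direction and side of the threshold, 12 lost the threshold, 9 gained it and 24 changed sign; exon bins stayed uncalled in all 51. The summed introns, the intron share as a covariate and the bins with libraries as units were added after seeing the data. Causes were not tested. The summed introns cover only Pvt1 of the 3 RNAs.

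Of the 3 RNAs, 1 was called in RBM45 KO over control and 2 in KO rescue over RBM45 KO with libraries as units. In METTL3 KO over WT 1 was called with exon bins summed and 0 with introns summed or the covariate. Without the filter 1 was called in control over WT and 2 between RBM45 KO clones; with introns summed 0 were called between control clones.

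Genes called in RBM45 KO over control, KO rescue over RBM45 KO and KO rescue over control were 4, 45 and 456 with DESeq2, 2512, 2919 and 5565 with libraries as units, and 1862, 777 and 4674 with the covariate as well. With introns summed they were 1653 in METTL3 KO over WT, 668 in control over WT, 1497, 1128 and 231 between control, RBM45 KO and KO rescue clones. The covariate gave 1266 in METTL3 KO over WT and 1467 between RBM45 KO clones, and no filter 632 between KO rescue clones.

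Signs changed for Pvt1 in KO rescue over RBM45 KO (-0.10) and Neat1 (-0.056) and Pvt1 (-0.12) in KO rescue over control with libraries as units and the covariate, for Pvt1 in KO rescue over control with exon bins (-0.046) or introns (-0.11) summed and between control clones with introns summed (-0.034), and for Neat1 in METTL3 KO over WT with the covariate (-0.68).

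Leaving out 1 clone, genes called were 0 to 10 in RBM45 KO over control, 0 to 33 in KO rescue over RBM45 KO and 0 to 122 in KO rescue over control, with 0 of the 3 RNAs in each. Leaving out 1 library, genes and RNAs called were 1747 to 3304 and 0 to 1 in METTL3 KO over WT, 435 to 2123 and 0 to 1 in control over WT, 1750 to 3003 and 0 to 2 between control clones, 1271 to 1518 and 0 to 1 between RBM45 KO clones, and 106 to 191 and 0 between KO rescue clones. Log2 changes then ran in KO rescue over control from -0.019 to 0.34 (Malat1), -0.35 to 0.59 (Neat1) and -0.044 to 0.076 (Pvt1), in METTL3 KO over WT from -0.19 to 0.17 (Neat1), in control over WT from -0.29 to 0.13 (Pvt1), between control clones from -0.28 to 0.57 (Pvt1), between RBM45 KO clones from -0.18 to 0.073 (Malat1), and between KO rescue clones from -0.10 to 0.044 (Malat1), -0.17 to 0.24 (Neat1) and -0.083 to 0.36 (Pvt1).

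Replicate numbers were not taken to pair the samples: same-numbered libraries correlated from -0.27 to 0.437, with all pairs that include KO rescue below 0 and all others above 0. A replicate block gave 4005 genes in METTL3 KO over WT, 1745 in control over WT, and 3420, 2435 and 417 between control, RBM45 KO and KO rescue clones, and changed no call of the 3 RNAs.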
